A study of Mus musculus with 6 samples.

Results

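The 10 genes described here encode enzymes and carriers of mitochondrial fatty acid oxidation: Cpt1a, Slc25a20, Cpt2, Crat, Acadvl, Acadl, Acadm, Hadha, Hadhb and Etfdh. They were chosen by symbol, and all 10 were found among the 52550 genes of the deposited count table and among the 16402 genes with enough counts to be tested. RNA-seq was performed on bone marrow-derived macrophages (BMDMs) of C57BL/6 mice, 3 libraries from MSR1 KO and 3 from MSR1 WT animals, where MSR1 is macrophage scavenger receptor 1. All marrow had grown for 7 days with 25 ng/ml of M-CSF, a growth factor for macrophages, and all macrophages were then kept for 48 h with bone marrow stem cells (BMSCs), separated from them by a porous transwell membrane. No library of macrophages without BMSCs was analysed here, and ages of the mice are not given in the sources used here. The knockout was not restricted to macrophages, and WT mice of the same background were the controls. The study speaks of 3 biological replicates, but no label says which animal or culture gave which library, so the p-values measure the spread between these libraries.

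Fatty acids enter the mitochondrion bound to carnitine and are then shortened step by step in the matrix. CPT1A on the outer membrane makes acylcarnitine, the SLC25A20 carrier brings it across the inner membrane, and CPT2 turns it back into acyl-CoA. Acyl-CoA dehydrogenases open each round of beta-oxidation, the trifunctional protein carries out the later steps on long chains, and the electrons pass through electron transfer flavoprotein and its dehydrogenase ETFDH to the respiratory chain. In macrophages this pathway is known as a fuel source linked to M2-like polarization, and the study asked how MSR1 affects mitochondrial oxidative phosphorylation and polarization, which is why the genotype comparison is given for these genes.

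Promoter sequences from RefSeq on build GRCm38.p6 were matched by symbol for 9 of the 10 genes, all but Crat. Each runs from 250 bases before the RefSeq gene start to 50 bases after it and is written 5′ to 3′ on the strand of the gene. Acadm is shown because its mean differed most between the genotypes among these 9, Cpt1a because it held the most counts, Etfdh because it alone held a match to the nuclear respiratory factor 1 motif, and Hadhb because its window overlaps that of Hadha. Capitals mark matches to a searched motif.
Acadm, chr3:153944594-153944893, minus strand: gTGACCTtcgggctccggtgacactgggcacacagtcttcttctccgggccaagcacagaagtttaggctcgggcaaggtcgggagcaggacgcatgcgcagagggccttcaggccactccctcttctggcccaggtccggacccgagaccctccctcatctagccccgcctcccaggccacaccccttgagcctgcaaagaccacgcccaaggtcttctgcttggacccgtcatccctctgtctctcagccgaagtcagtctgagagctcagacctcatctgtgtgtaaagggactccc
Cpt1a, chr19:3323051-3323350, plus strand: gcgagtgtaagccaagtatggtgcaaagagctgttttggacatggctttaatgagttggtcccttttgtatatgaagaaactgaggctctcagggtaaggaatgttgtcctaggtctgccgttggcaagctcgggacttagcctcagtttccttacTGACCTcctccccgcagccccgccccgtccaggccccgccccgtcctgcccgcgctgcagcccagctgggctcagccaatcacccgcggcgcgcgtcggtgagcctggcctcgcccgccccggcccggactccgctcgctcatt
Etfdh, chr3:79628718-79629017, minus strand: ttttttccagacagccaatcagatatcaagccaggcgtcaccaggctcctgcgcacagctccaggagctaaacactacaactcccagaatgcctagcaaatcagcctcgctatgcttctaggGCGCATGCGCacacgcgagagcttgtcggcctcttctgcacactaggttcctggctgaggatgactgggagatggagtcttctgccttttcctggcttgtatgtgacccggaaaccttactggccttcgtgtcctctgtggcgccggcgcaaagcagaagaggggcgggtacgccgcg
Hadhb, chr5:30155003-30155302, plus strand: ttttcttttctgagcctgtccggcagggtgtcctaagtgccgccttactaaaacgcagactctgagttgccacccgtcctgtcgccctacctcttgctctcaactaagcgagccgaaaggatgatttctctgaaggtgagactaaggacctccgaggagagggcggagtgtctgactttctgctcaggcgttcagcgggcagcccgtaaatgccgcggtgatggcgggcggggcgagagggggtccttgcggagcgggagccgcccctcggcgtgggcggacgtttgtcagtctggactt
The RefSeq start lay on the same base as the gene start of the deposited table for Cpt1a, 5 bases inside the deposited gene for Hadhb, 11 bases outside it for Acadm and 733 bases inside it for Etfdh.

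Motifs were searched on both strands of all 32851 RefSeq promoters of this length. AGGTCA, the half-site that many nuclear receptors bind, was in 3 of the 9 windows (Cpt1a, Acadvl and Acadm) and in 16.3% of all promoters. It begins 94 bases before the start in Cpt1a and 249 bases before it in Acadm, on the opposite strand in both, so that it reads TGACCT above. The nuclear respiratory factor 1 motif, in capitals in the Etfdh sequence, was in 1 of the 9 windows, beginning 128 bases before the start of Etfdh, and in 0.971% of all promoters. A PPAR element, AGGTCA followed after 1 base by a further AGGTCA, was in 0 of the 9 windows and 0.0396% of all promoters. The oestrogen-related receptor motif TCAAGGTCA, which also holds the half-site, was in 0 of the 9 and 0.423% of all. The 9 windows were 50.7 to 70.3% G and C, with Acadl the highest, against a median of 52.7% for all promoters. They held 9 to 34 CpG sites, where the median promoter held 7.0 and 45.8% of promoters held 9 or more. Hadha and Hadhb lie head to head on opposite strands with 85 bases between their starts in the deposited table, and their windows share 228 bases. A match to these letters is a description and does not show binding.

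Msr1 was lower in every MSR1 KO library than in any MSR1 WT library. It had 2118, 1825 and 2000 counts in MSR1 KO and 7543, 9163 and 9219 in MSR1 WT, and the edgeR quasi-likelihood test with Benjamini-Hochberg adjustment put its log2 fold change at -2.02 ± 0.135 (standard error) with an adjusted p of 0.00124. Libraries held 36143518 to 47417448 counts in total. The summed level of 10 macrophage markers was 23430 to 24430 CPM (counts scaled to the library size) in MSR1 KO and 23510 to 26040 in MSR1 WT, and 1 of the 10, Fcgr1, was higher in MSR1 KO at an adjusted p under 0.05. All 12 stromal markers were detected, with a sum of 1256, 1644 and 1268 CPM in MSR1 KO and of 2111, 1651 and 1918 CPM in MSR1 WT, so the sum was lower in MSR1 KO without overlap. Of these 12, Col6a1, Pdgfra, Pdgfrb and Cxcl12 were lower and 0 were higher at an adjusted p under 0.05. Thy1, a further member of that list named after its values were seen, was higher in MSR1 KO without overlap (log2 fold change 1.31 with an adjusted p of 0.0907, edgeR), so the stromal markers did not all have one direction. Col1a1 and Col1a2 held most of the stromal sum. The sum over 8 adipocyte markers was 0.688 to 1.06 CPM in MSR1 KO and 2.74 to 3.70 CPM in MSR1 WT. Of the 8, 4 were at 0 in every library. Plin4, the only 1 tested, was lower in MSR1 KO (log2 -1.79, adjusted p = 0.0267, edgeR). Plin4 held most of this sum, with 1.057, 0.929 and 0.516 CPM in MSR1 KO and 2.545, 2.57 and 3.508 CPM in MSR1 WT. The adipocyte sum thus mainly followed that 1 gene. Neutrophil markers summed to 664.4 to 1081 CPM in MSR1 KO and 430.8 to 818.7 CPM in MSR1 WT, which overlap. Of the 10, 0 passed an adjusted p under 0.05 by edgeR, although 3 were higher at an unadjusted p under 0.05. However, 0 of the 10 had a lower mean in MSR1 KO, and their median log2 fold change was 0.42. Without overlap 3 were higher and 0 lower, and 2 were higher by a fold change above 1.5 with an unadjusted p under 0.05. B cell markers summed to at most 23.18 CPM and erythroid markers to at most 0.412 CPM in any library.

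None of the 10 oxidation genes passed an adjusted p of 0.05 between the genotypes, against 2.66% of all tested genes lower and 2.25% higher in MSR1 KO. At an unadjusted p under 0.05, 2 of the 10, Crat and Acadm, were lower and 0 higher, where 10.2% of all tested genes were lower and 8.65% higher. By DESeq2's Wald test 1 of the 10, Crat, was lower at an adjusted p under 0.05, where that test called 5.38% of all genes with an adjusted p lower and 4.57% higher. The mean was lower in MSR1 KO for 9 of the 10, all but Hadhb, where 50.4% of all tested genes had a lower mean. In 4 of the 10 (Crat, Acadm, Acadl and Etfdh) all MSR1 KO libraries were below all of MSR1 WT, which was so for 13.4% of all tested genes. The reverse order occurred in 0 of the 10 and in 12.1% of all tested genes. The median log2 fold change was -0.096 for the 10 genes and -0.0023 for all tested genes, and the median absolute change was 0.096 against 0.18. No test was run on the 10 genes as a set.

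A fold change of 1.5, the size the study asked of a differentially expressed gene (DEG) beside an unadjusted p under 0.05, equals 0.585 on the log2 scale. The 95% interval reached that size in neither direction for any of the 10. By the DEG definition 0 of the 10 were lower and 0 higher, against 5.05% of all tested genes lower and 3.59% higher. The intervals of 8 genes held 0. The median standard error was 0.078 for these genes and 0.157 for all tested genes, and the smallest count of any of the 10 in any library was 611. In bulk RNA, a change per cell and a change in the share of the cells that express a gene cannot be told apart.

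**Figure D1:**
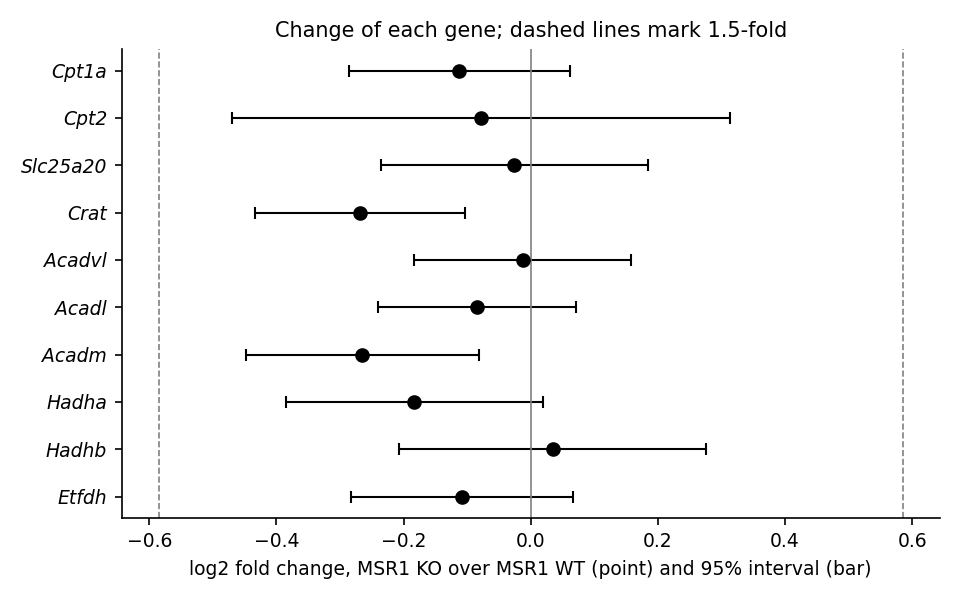
Log2 fold change of each oxidation gene, MSR1 KO over MSR1 WT (point), with its 95% interval from the edgeR quasi-likelihood fit (bar, n = 3 libraries per group), and dashed lines at a fold change of 1.5. The intervals of Crat and Acadm lie below 0, those of the other 8 genes hold 0, and none reaches a dashed line.

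Among the genes of the carnitine system, Crat stood lowest in MSR1 KO relative to MSR1 WT, while Cpt1a, Slc25a20 and Cpt2 overlapped between the genotypes. Cpt1a (ENSMUSG00000024900.4, chromosome 19 from 3323301 to 3385732, build GRCm38), the gatekeeper of mitochondrial fatty acid entry, had 8602, 10325 and 10568 counts in MSR1 KO and 10177, 12911 and 10989 in MSR1 WT. Scaled to library size by the TMM method, these were 239.4, 259.2 and 227.3 CPM in MSR1 KO and 246.7, 272.0 and 265.9 CPM in MSR1 WT. MSR1 KO replicate 2 lay above MSR1 WT replicate 1, so the groups overlapped. The means were 242.0 ± 16.1 and 261.5 ± 13.2 CPM (SD, n = 3 each), a difference of -7.49% with a 95% interval from -18.0 to 4.33%. On the log2 scale the change was -0.11 (standard error 0.0755, adjusted p = 0.488, edgeR).

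Slc25a20 (ENSMUSG00000032602.6, chromosome 9 from 108662088 to 108684641), the carnitine-acylcarnitine carrier, had 1479, 1417 and 1987 counts in MSR1 KO and 1617, 1947 and 1711 in MSR1 WT. Its levels were 41.16, 35.58 and 42.73 CPM against 39.20, 41.01 and 41.39 CPM. The MSR1 KO libraries held both its highest and its lowest level. Its log2 change was -0.026 with a standard error of 0.0913 (adjusted p = 0.92, edgeR), and the interval of the difference ran from -15.0 to 13.6%.

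Cpt2 (ENSMUSG00000028607.16, chromosome 4 from 107903981 to 107923610), which re-forms acyl-CoA in the matrix, was the most variable of the 10. It had 688, 611 and 1109 counts in MSR1 KO and 743, 1095 and 848 in MSR1 WT, or 19.14, 15.34 and 23.85 CPM against 18.01, 23.07 and 20.52 CPM. MSR1 KO replicate 2 was the lowest and MSR1 KO replicate 3 the highest of the 6 libraries. Its SD was 21.9% of the mean in MSR1 KO and 12.3% in MSR1 WT, where the 10 genes had a median of 5.02%. Its log2 change was -0.078 with a standard error of 0.171 (adjusted p = 0.865, edgeR), and the interval was the widest of the 10, from -27.8 to 24.3%. Without MSR1 KO replicate 2 the log2 fold change was 0.067, and without MSR1 WT replicate 2 it was 0.013.

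Crat (ENSMUSG00000026853.15, chromosome 2 from 30400471 to 30415813), carnitine acetyltransferase, moves short acyl groups between CoA and carnitine and so buffers mitochondrial acetyl-CoA. It had 1857, 2035 and 2471 counts in MSR1 KO and 2554, 3104 and 2501 in MSR1 WT. After scaling, 51.67, 51.09 and 53.14 CPM in MSR1 KO stood against 61.91, 65.39 and 60.51 CPM in MSR1 WT. All 3 MSR1 KO libraries lay below all 3 MSR1 WT libraries. The mean was 51.97 ± 1.05 CPM in MSR1 KO and 62.6 ± 2.51 CPM in MSR1 WT (SD, n = 3 each), a difference of -17.0% with an interval from -26.0 to -6.88%. On the log2 scale this was -0.27 with a standard error of 0.0723, and an adjusted p of 0.0789 by edgeR and 0.0421 by DESeq2. The adjusted p ranged from 0.0421 to 0.258 over the 12 alternatives tried, and the log2 fold change from -0.30 to -0.24. A change of at least this size in either direction was seen in 36.9% of all tested genes, and 8.72% of the exon bases of Crat overlap Dolpp1 and Gm16323 on the other strand.

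**Figure D2:**
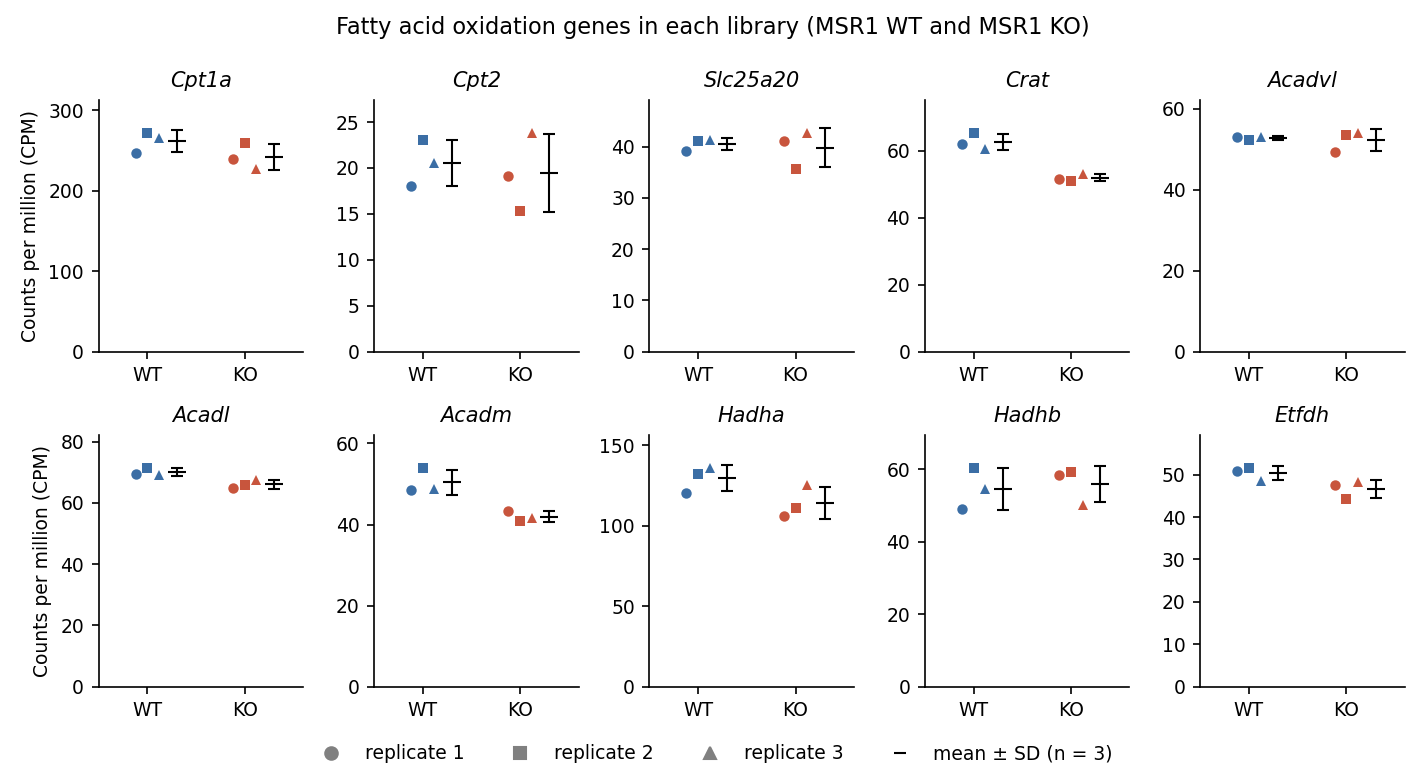
Level of each oxidation gene in every library, in CPM on a linear axis from 0, with MSR1 WT in blue and MSR1 KO in red, a symbol for each replicate number, and the mean ± SD (n = 3) beside the points. Crat, Acadm, Acadl and Etfdh show no overlap between the genotypes, and Cpt2 shows the widest spread within MSR1 KO, from 15.34 to 23.85 CPM.

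Of the 3 acyl-CoA dehydrogenases, which act on acyl chains of different length, the medium-chain enzyme had the largest difference between the genotypes. Whether the 3 differed from each other was not tested. Acadvl (ENSMUSG00000018574.14, chromosome 11 from 70010183 to 70015411), the very long-chain enzyme, had 1773, 2132 and 2518 counts in MSR1 KO and 2186, 2480 and 2197 in MSR1 WT. Its levels were 49.34, 53.53 and 54.15 CPM against 52.99, 52.24 and 53.15 CPM. MSR1 KO replicate 1 was the lowest library, and the other 2 MSR1 KO libraries lay above all 3 of MSR1 WT. Its log2 change, -0.012 with a standard error of 0.0743 (adjusted p = 0.952, edgeR), was the nearest to 0 of the 10, with an interval from -11.9 to 11.6%, and it was 0.035 without MSR1 KO replicate 1. Of its exon bases, 42.85% overlap Dvl2 on the opposite strand, so counts made without strand could mix both genes.

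Acadl (ENSMUSG00000026003.5, chromosome 1 from 66830839 to 66863277), the long-chain enzyme, had 2327, 2626 and 3142 counts in MSR1 KO and 2870, 3393 and 2856 in MSR1 WT. Levels of 64.75, 65.93 and 67.57 CPM in MSR1 KO lay below 69.57, 71.47 and 69.10 CPM in MSR1 WT. The groups did not overlap, but the gap between the nearest libraries was of the size of the SDs, 1.41 and 1.26 CPM. The difference of -5.66% had an interval from -15.3 to 5.11% (log2 fold change -0.084, standard error 0.0679, adjusted p = 0.573, edgeR).

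Acadm (ENSMUSG00000062908.12, chromosome 3 from 153922357 to 153944632), the medium-chain enzyme, had 1561, 1628 and 1934 counts in MSR1 KO and 1997, 2564 and 2019 in MSR1 WT. Levels were 43.44, 40.87 and 41.59 CPM in MSR1 KO and 48.41, 54.01 and 48.85 CPM in MSR1 WT. The groups did not overlap, and MSR1 WT replicate 2 was the highest. Means of 41.97 ± 1.32 and 50.42 ± 3.12 CPM (SD, n = 3 each) gave a difference of -16.8% with an interval from -26.7 to -5.5%. On the log2 scale this was -0.27 (standard error 0.0799, adjusted p = 0.111, edgeR), and the adjusted p lay between 0.0846 and 0.343 over the 12 alternatives. The stromal marker sum was also lower in MSR1 KO without overlap, and its part in the differences of Crat and Acadm was not tested. Nor was the part of the neutrophil markers.

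The trifunctional protein genes had fitted changes of opposite sign, neither of which passed the threshold. Hadha (ENSMUSG00000025745.11, chromosome 5 from 30118304 to 30155162) encodes the alpha subunit, which hydrates and dehydrogenates long-chain enoyl-CoA. It had 3820, 4422 and 5840 counts in MSR1 KO and 4977, 6289 and 5626 in MSR1 WT, or 106.3, 111.0 and 125.6 CPM against 120.6, 132.5 and 136.1 CPM. Only MSR1 KO replicate 3 reached into the MSR1 WT range. The difference was -11.9% with an interval from -23.4 to 1.32% (log2 fold change -0.18, standard error 0.0878, adjusted p = 0.313, edgeR).

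Hadhb (ENSMUSG00000059447.13, chromosome 5 from 30155248 to 30184593) encodes the beta subunit, the thiolase that cleaves off acetyl-CoA. It had 2097, 2365 and 2337 counts in MSR1 KO and 2021, 2870 and 2253 in MSR1 WT, or 58.35, 59.38 and 50.26 CPM against 48.99, 60.46 and 54.51 CPM. MSR1 WT held both the lowest and the highest library. Its log2 change was 0.035 with a standard error of 0.105 (adjusted p = 0.907, edgeR) with an interval from -13.4 to 21.1%, and it was -0.01 without MSR1 KO replicate 2 and -0.039 without MSR1 WT replicate 1. Of the distinct stretches of 100 bases in Hadhb transcripts, 14.82% also occur in the processed pseudogenes Gm13910 and Gm9108, so the counts of Hadhb are less certain than those of Hadha.

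The ratio of Hadha to Hadhb CPM was 1.82, 1.87 and 2.50 in MSR1 KO and 2.46, 2.19 and 2.50 in MSR1 WT. MSR1 KO replicates 1 and 2 lay below all other libraries, while MSR1 KO replicate 3 was level with MSR1 WT replicate 3. The log2 ratio differed by -0.22 between the genotypes (two-sided exact permutation p = 0.4, where 3 libraries against 3 allow no p below 0.1). This ratio was chosen after its values had been seen.

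Etfdh (ENSMUSG00000027809.14, chromosome 3 from 79603788 to 79629500), which hands the electrons of the acyl-CoA dehydrogenases on to ubiquinone, had 1706, 1764 and 2245 counts in MSR1 KO and 2097, 2451 and 2002 in MSR1 WT. Its levels were 47.47, 44.29 and 48.28 CPM in MSR1 KO and 50.83, 51.63 and 48.43 CPM in MSR1 WT. The groups touched without overlap, MSR1 KO replicate 3 and MSR1 WT replicate 3 being nearly level. The difference of -7.2% had an interval from -17.8 to 4.75% (log2 fold change -0.11, standard error 0.0761, adjusted p = 0.513, edgeR). Of its exon bases, 3.7% overlap another gene on the opposite strand.

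Added over the 10 genes, the level was 721.0, 736.3 and 734.4 CPM in MSR1 KO and 757.3, 823.7 and 798.4 CPM in MSR1 WT. The means were 730.6 ± 8.33 and 793.1 ± 33.5 CPM (SD, n = 3 each), and the groups did not overlap. Cpt1a made up 30.94 to 35.21% of this sum in MSR1 KO and 32.58 to 33.30% in MSR1 WT. Without Cpt1a the sum was 481.6, 477.0 and 507.2 CPM in MSR1 KO and 510.6, 551.8 and 532.6 CPM in MSR1 WT, again without overlap. Sums of fatty acid uptake and activation genes were also lower in MSR1 KO without overlap (2648 to 2961 against 3163 to 3423 CPM). So were those of pathway regulators (928.2 to 953.2 against 958.4 to 975.3 CPM), while sums of the other related lists described below overlapped. The stromal marker sum was lower in MSR1 KO as well. Its part in these sums was not tested, nor was that of the neutrophil markers. MSR1 WT replicate 2 held the highest level of 6 of the 10 genes and MSR1 KO replicate 2 the lowest of 5. MSR1 KO replicate 3 held the highest level of 3 genes, Cpt2, Slc25a20 and Acadvl.

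Levels of different genes were compared per length, as CPM per kilobase of merged exons and as a mean over the 6 libraries. Acadl (33.95, range over libraries 32.30 to 35.65) and Cpt1a (32.94, range 29.74 to 35.59) stood highest, and their ranges overlapped. Acadvl followed at 19.57, apart from both neighbours. Hadha at 13.98, Acadm at 11.81 and Crat at 10.63 came next, and the range of Acadm overlapped with those of both Hadha and Crat. Hadhb (8.39), Cpt2 (8.36) and Slc25a20 (8.29) could not be ordered beyond their spread, and Etfdh had the lowest mean at 6.46 (range 5.90 to 6.88), apart from Slc25a20 and Hadhb but within the range of Cpt2, whose lowest library was at 6.42. The highest level was 5.26 times the lowest.

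The order depended on the length used. Per kilobase of the longest transcript, Cpt1a came first at 58.31 and Acadl second at 35.52, followed by Hadha (30.38), Acadvl (24.25) and Acadm (22.57). Cpt2 was then lowest at 8.43, and the highest level was 6.92 times the lowest. Merged exons of Cpt1a cover 7642 bases against 4317 in its longest transcript, whereas those of Cpt2 cover 2391 against 2372.

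**Figure D3:**
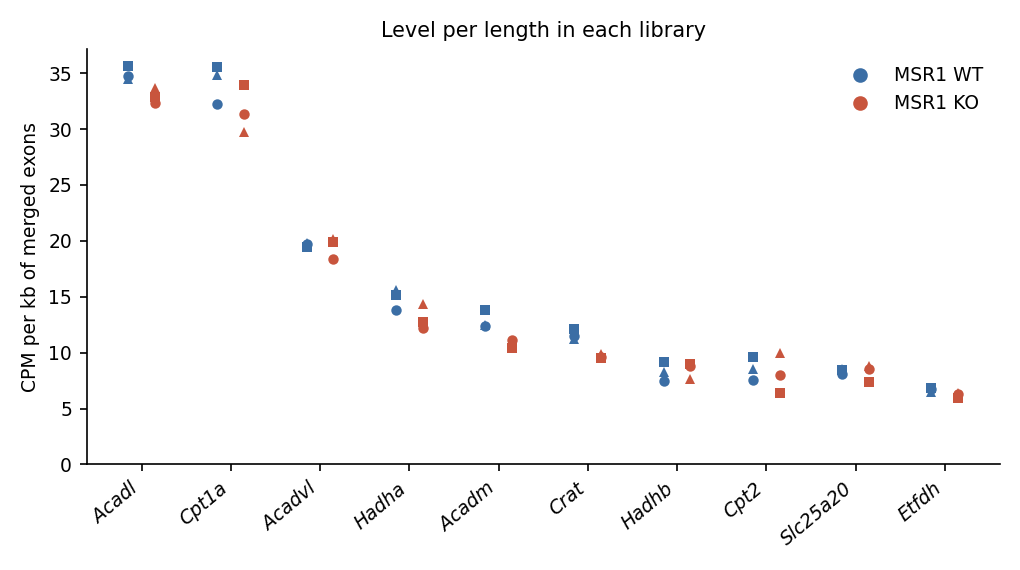
CPM per kilobase of merged exons for each oxidation gene, ordered by the mean over all libraries, with a point for each MSR1 WT (blue) and MSR1 KO (red) library. Acadl and Cpt1a share the top, between 29.74 and 35.65, and Etfdh has the lowest mean, with libraries from 5.90 to 6.88.

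Other isoforms of the gate enzyme were scarce. Cpt1c, a form known mainly from neurons, averaged 0.915 CPM per kilobase of merged exons, and Cpt1b, the muscle form, averaged 0.147. Cpt1b had 4, 12 and 74 counts in MSR1 KO and 2, 27 and 15 in MSR1 WT, and most of its exon bases (81.38%) are shared with Gm44502 on the same strand, so its counts are uncertain. Etfa and Etfb, the 2 subunits of electron transfer flavoprotein, averaged 25.06 and 28.96 CPM per kilobase, above Etfdh, but 58.25% of the exon bases of Etfb are shared with Gm45233 and Mir7051 on the same strand, so its counts are uncertain too.

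A related list of 23 other mitochondrial genes showed no called change. Beside beta-oxidation genes it holds Pcca, Pccb, Mcee and Mmut, which are not beta-oxidation steps. Of these 23, all tested, 0 were higher and 0 lower at an adjusted p under 0.05 by edgeR. By the study's definition 0 were DEGs, and 1 was lower at an unadjusted p under 0.05. The median log2 fold change was -0.053, and 17 of the 23 had a lower mean in MSR1 KO. Cpt1c had a mean of 4.37 CPM in MSR1 KO and 5.89 CPM in MSR1 WT (log2 fold change -0.43, adjusted p = 0.311). Acadsb, an enzyme of branched short-chain acyl-CoA breakdown, had 42.45 and 33.52 CPM (0.34, adjusted p = 0.284). Acad11, an acyl-CoA dehydrogenase family member, had 20.91 and 24.86 CPM (-0.25, adjusted p = 0.201).

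Upstream of the mitochondrion, 1 of 17 tested genes of fatty acid uptake and activation passed. Cd36, a fatty acid translocase and scavenger receptor, had 65326, 67851 and 87322 counts in MSR1 KO and 86852, 114596 and 91528 in MSR1 WT. Its level was 1800 ± 88.6 CPM in MSR1 KO and 2245 ± 157 CPM in MSR1 WT (SD, n = 3 each), with no overlap. Its log2 change was -0.32 with a standard error of 0.0728 (adjusted p = 0.0476, edgeR), and the call was lost without any 1 of the 6 libraries, with adjusted p-values from 0.0679 to 0.155, as well as with no count filter (adjusted p = 0.0694), and with the replicate number as a block (adjusted p = 0.125). Fabp4, a cytosolic fatty acid carrier outside the naming rule and named after its values were seen, was a DEG by the study's definition (log2 fold change -0.72, standard error 0.211) with an adjusted p of 0.101.

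Among 8 tested genes of lipolysis and lysosomal lipid release, 1 passed, and in the opposite direction. Lipe, hormone-sensitive lipase, had 1832, 2058 and 1856 counts in MSR1 KO and 1371, 1483 and 1362 in MSR1 WT, or 47.52 ± 6.6 against 32.48 ± 1.08 CPM (SD, n = 3 each). All 3 MSR1 KO libraries lay above all 3 MSR1 WT libraries, and the log2 fold change came to 0.55 with a standard error of 0.111 (adjusted p = 0.0331, edgeR). The adjusted p was 0.0196 without MSR1 KO replicate 3 but 0.068 to 0.125 without any other library, just above 0.05 with no count filter and 0.0845 with the replicate block, so the call was lost there. Part of the exon bases of Lipe overlap 4732471J01Rik on the opposite strand. The median log2 fold change of the 8 genes was -0.13, and 6 had a lower mean in MSR1 KO.

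In the peroxisome, where very long chains are shortened first, 0 of 17 tested genes passed an adjusted p under 0.05 by edgeR and 0 were DEGs, while 1 was higher and 1 lower at an unadjusted p under 0.05. Their median log2 fold change was 0.013. Ehhadh, the peroxisomal bifunctional enzyme, had 3.39 CPM in MSR1 KO and 4.48 CPM in MSR1 WT (log2 fold change -0.40, adjusted p = 0.34). Acot8, a peroxisomal thioesterase, had 15.28 and 12.43 CPM (0.30, adjusted p = 0.302).

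Regulators of the pathway gave 0 calls at an adjusted p under 0.05 by edgeR and 0 DEGs among 20 tested genes, with 2 lower at an unadjusted p under 0.05. Prkab2, a regulatory subunit of AMP-activated kinase, had 12.26 CPM in MSR1 KO and 17.20 CPM in MSR1 WT (log2 fold change -0.49, adjusted p = 0.183), and Acaca, which makes the CPT1 inhibitor malonyl-CoA, had 28.24 and 33.22 CPM (-0.24, adjusted p = 0.267). Ppargc1a, which encodes the coactivator PGC1α, had 0, 0 and 0 counts in MSR1 KO and 0, 5 and 5 in MSR1 WT. That was too low to be tested, and a count of 0 allows up to 3 counts. In every library, more genes held 4, 8 or 12 counts than held either neighbouring number, so small counts did not fall off evenly, and the cause was not tested. Ppargc1b, its relative, had 102, 104 and 102 counts in MSR1 KO and 74, 81 and 125 in MSR1 WT (log2 fold change 0.23, standard error 0.285, adjusted p = 0.741, edgeR).

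Of 10 tested PPAR target genes outside the oxidation steps, 1 passed. Pdk4, the kinase that closes pyruvate dehydrogenase and so spares glucose for fatty acid use, had 651, 701 and 772 counts in MSR1 KO and 1203, 1888 and 1384 in MSR1 WT. The means were 17.44 ± 0.769 and 34.14 ± 5.33 CPM (SD, n = 3 each), with no overlap. Its log2 fold change came to -0.97 with a standard error of 0.125 (adjusted p = 0.0113, edgeR), outside the interval of every one of the 10 oxidation genes, and it lay between -1.07 and -0.85 without any 1 library, with adjusted p-values from 0.013 to 0.0492. Ucp2, the most abundant gene of this list and a mitochondrial carrier, had 507.8 and 518.1 CPM (-0.029, adjusted p = 0.921). The stromal marker sum given above differed between the genotypes without overlap, as did the adipocyte sum, which was mostly Plin4. Their part in the results on Cd36, Lipe and Pdk4 was not tested, nor was that of the neutrophil markers.

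**Figure D4:**
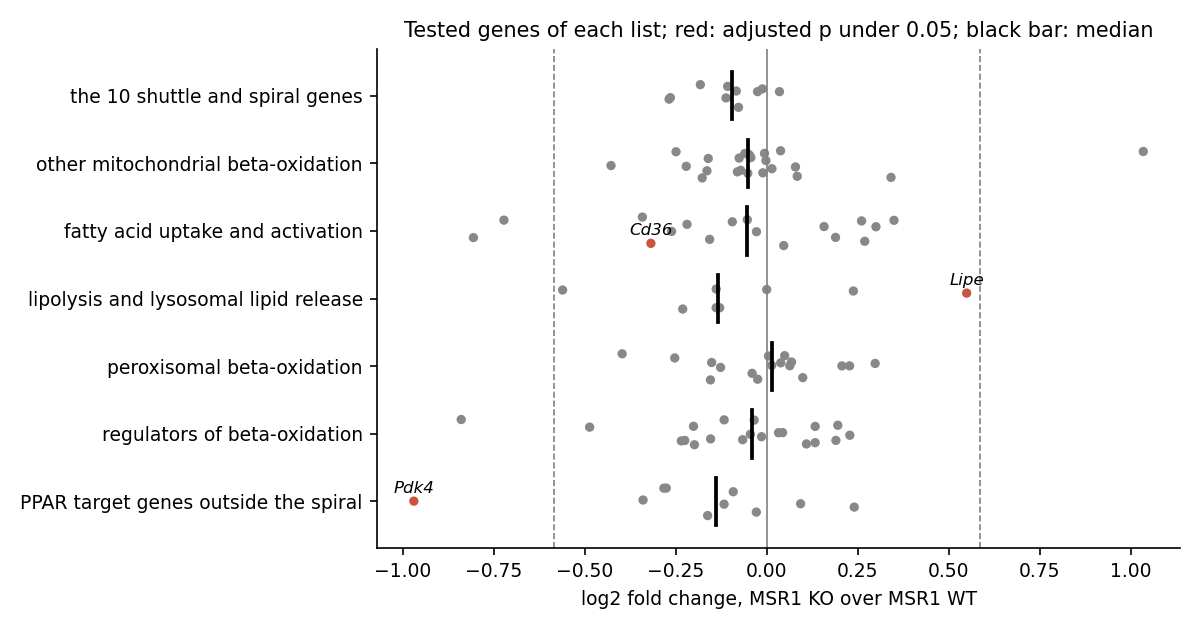
Log2 fold change, MSR1 KO over MSR1 WT, of every tested gene of the 10 oxidation genes and of each related list (points, red at an adjusted p under 0.05 by edgeR), with the median of each list (black bar) and dashed lines at a fold change of 1.5. Cd36, Lipe and Pdk4 are the 3 red points, and the 10 oxidation genes span -0.27 to 0.03.

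The direction of each oxidation gene was recomputed under 12 alternatives. Of the 120 values, 113 kept the sign and the side of the threshold, 6 changed sign and 1, that of Crat by DESeq2, passed the threshold. The 6 sign changes fell to Cpt2, Slc25a20, Acadvl and Hadhb, each with 1 library left out, while Cpt1a, Crat, Acadl, Acadm, Hadha and Etfdh were lower in MSR1 KO under all 12.

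**Figure D5:**
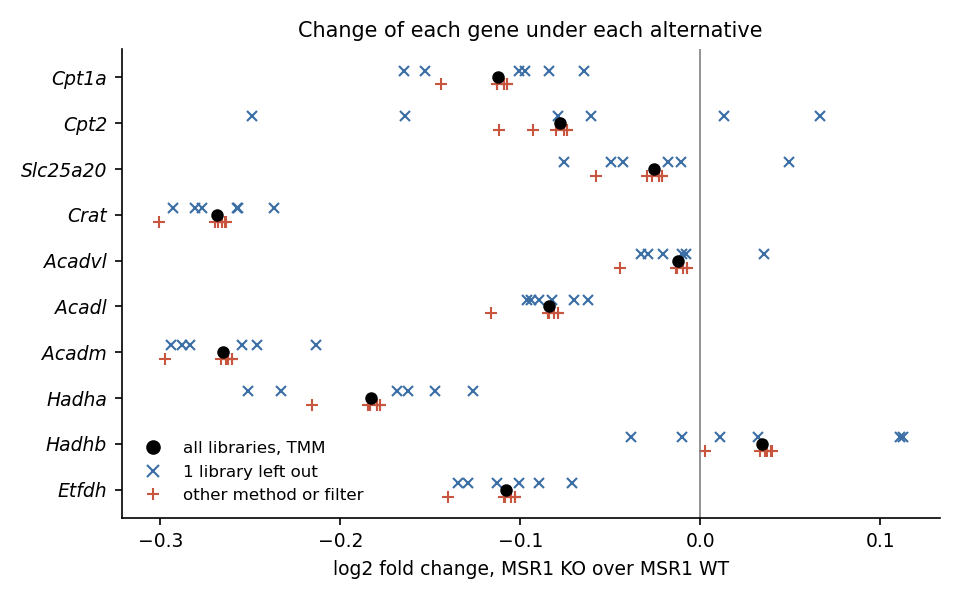
Log2 fold change of each oxidation gene with all libraries (black points), with 1 library left out (blue crosses) and with another method or filter (red plus signs). Values of Crat stay between -0.30 and -0.24 and those of Acadm between -0.30 and -0.21, while the crosses of Cpt2, Slc25a20, Acadvl and Hadhb lie on both sides of 0.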

How the data were processed

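RNA-seq of 3 MSR1 KO and 3 MSR1 WT libraries was analysed from the raw read counts per gene that the authors deposited, without normalization. The deposited table also holds counts divided by size factors and the authors' own fold changes and p-values, none of which were used. Per the submitters' processing notes, fastp 0.17.1, HISAT2 2.1.0, DESeq2 1.18.1 and R 3.4.3 were used, whereas the paper's methods name TopHat and FPKM values. Which program counted the reads, whether it used strand, and the genome build are not given in the sources used here. If strand was ignored, reads of overlapping genes on opposite strands would be counted together. Of 52550 gene identifiers, 49909 had the same start and end in GENCODE vM21, so positions are on GRCm38, though that of Cpt1a there differs.

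Total counts were 36143518 to 47417448 per library. Spreadsheet dates stood in for 27 symbols, of which 26 were restored, and of 89 symbols with several identifiers the one with the most counts was taken. Counts were filtered with filterByExpr, scaled by TMM (CPM are on that scale) and tested over all 16402 remaining genes with the quasi-likelihood functions glmQLFit and glmQLFTest (edgeR 4.0.16, R 4.3.3) and Benjamini-Hochberg adjustment. The standard error is the absolute log2 fold change divided by the root of the F statistic, and intervals are 95%. A gene was called at an adjusted p under 0.05. DEGs followed the study's definition, a fold change above 1.5 with an unadjusted p under 0.05. The alternatives were DESeq2 1.42.0, its size factors in edgeR, library size alone, 2 other count filters, a replicate block and each library left out.

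The 10 genes and the related lists, which were written by hand from general knowledge, were chosen with earlier results of these data known. All 10 genes are named. Of each related list, genes with an adjusted p under 0.05 are named, or else up to 3 with the largest change and a mean of at least 1 CPM. Msr1, Ppargc1a, Ppargc1b and the most abundant genes of lists could also be named. A gene that this rule names is not reported here. Replicates differed by more than counting noise. The exact permutation test used SciPy 1.17.1.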

Additional observations from a re-analysis of the deposited data

How the results depend on the processing

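Of all tested genes, 369 were higher and 436 lower in MSR1 KO at an adjusted p under 0.05. These counts were 720 and 848 by DESeq2's Wald test, 237 and 288 with no filter beyond a total count above 0, and 59 and 78 with a replicate block, with each library left out in turn lying between 18 and 407 higher (lowest without MSR1 WT replicate 1) and between 53 and 372 lower. Same-numbered libraries showed no shared deviation, with correlations of -0.0261, 0.0187 and -0.0048. Whether they were prepared together is not given, and 0 oxidation genes passed with the block. Of the 10 oxidation genes, 1 was lower at an adjusted p under 0.05 by DESeq2 and 0 under any other alternative. Of the related list genes, 1 was higher and 2 were lower. These counts were 1 and 3 by DESeq2's Wald test and 0 and 1 with no filter. They were 0 and 2 with the block (Cd36 not among the 2, adjusted p = 0.125), and 0 to 1 and 1 with a library left out. By the DEG definition 0 of the related list genes were higher and 2 lower. With a library left out, 0 to 1 were higher and 2 to 3 lower. Leaving out a library reversed the sign of 4 genes. Acadvl (-0.033 to 0.035 over the libraries left out) reversed without MSR1 KO replicate 1, Cpt2 (-0.25 to 0.067) without MSR1 KO replicate 2 and also without MSR1 WT replicate 2 (0.013), Slc25a20 (-0.076 to 0.049) without MSR1 KO replicate 2, and Hadhb (-0.039 to 0.11) without MSR1 WT replicate 1 and also without MSR1 KO replicate 2 (-0.01). The causes were not tested. The median log2 fold change of the 10 stayed between -0.13 and -0.077, and that of all genes moved by at most 0.034 from 0 with another scaling. The highest over the lowest level per length was 6.92 with the longest transcript. The smallest count of any of the 10 genes was 611, and each group had 3 libraries.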
